A study of Homo sapiens with 4 samples.

Results

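SR proteins and heterogeneous nuclear ribonucleoproteins (hnRNPs) are the main families of RNA-binding proteins that set which splice sites a cell uses, and their transcripts were examined here in an embryonal carcinoma line treated with barasertib. The members are all protein-coding genes whose current symbol is SRSF followed by a number or begins with HNRNP. This gave 38 genes, 12 SRSF and 26 HNRNP, of which 37 had a row among the 27685 gene IDs and 33 reached a mean of 1 TPM over the libraries and were tested with 13938 genes in all. The tested members were all 12 SRSF genes and 21 HNRNP genes. HNRNPA1L3 was not analysed here, and HNRNPCL1, HNRNPCL2, HNRNPCL3 and HNRNPCL4, intronless relatives of HNRNPC, were at or near 0 TPM (highest value 0.395 TPM, HNRNPCL2 in barasertib replicate 1).

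The cells were NCC-IT-A3, which is a line and not a tissue. They were grown for 4 days in medium with 100 nM barasertib, which inhibits the mitotic kinase Aurora B, or with its solvent DMSO, and 2 libraries of polyadenylated RNA represent each group. The labels do not say whether the libraries of a group are separate cultures, so the p-values rest on the spread between these libraries, which may be technical. The test used, limma, combines each gene's own spread with that of other genes at a similar level. Values are in TPM, a gene's share of its library's transcripts corrected for length, so levels can be compared between genes. RNA was taken from whole cultures, in which fewer cells of a type and less RNA per cell cannot be told apart. The identity of the cells was checked with fixed markers: all 12 pluripotency markers were above 1 TPM, with sums of 6802 to 7732 TPM, against 2 of 8 fibroblast markers (sums of 8.70 to 13.8 TPM, FAP at 0 in every library) and 1 of 7 endothelial and blood markers (3.47 to 4.97 TPM, PTPRC and HBB at 0). The pluripotency sums were 6802 and 6944 TPM with DMSO and 7444 and 7732 TPM with barasertib, and the fibroblast sums were likewise higher with barasertib; their part in the results was not tested. POU5F1 alone made up 3524 to 3999 TPM of the pluripotency sums. Of the 12 markers 5 were called higher and 2 lower (SOX2 and CRIPTO), and PODXL was at 506 and 167 TPM in the barasertib libraries. AURKB, the gene of the inhibited kinase, was at 66.5 ± 2.22 TPM in the controls and 106 ± 0.708 TPM after treatment. Aligned sequence estimated from coverage was 4.22 to 4.59 Gb per library.

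As background, SR proteins carry RNA recognition motifs and a tail rich in arginine and serine. They bind enhancer sequences in exons and recruit the U1 and U2 particles, and kinases of the SRPK and CLK families phosphorylate the tail. Many hnRNPs bind silencer sequences in exons or introns and oppose SR proteins at the same sites, the textbook pair being SRSF1 and hnRNP A1. Both families hold down their own levels, since many of their genes contain exons or introns whose inclusion sends the message to nonsense-mediated decay.

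Among the SR genes, SRSF1 was 2.21-fold higher with barasertib, and 5 others (SRSF2, SRSF5, SRSF6, SRSF7 and SRSF11) rose by less than 1.5-fold. Of the 12, 6 were called higher and 0 lower (limma on log2(TPM + 1), Benjamini-Hochberg adjusted p under 0.05), and 0 were lower at an unadjusted p under 0.05. Over all tested genes 22.0% were called higher and 7.44% lower. The median log2 change of the 12 was 0.20, against 0.11 for all tested genes.

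SRSF1 (SF2/ASF), the founding SR protein and a proto-oncogene that promotes use of nearby 5′ splice sites, was at 66.7 and 61.3 TPM in the DMSO libraries and 143 and 141 TPM in the barasertib libraries. Both treated libraries lay far above both controls, and the gap between groups was many times the gap within either. The mean went from 64.0 ± 3.83 to 142 ± 1.52 TPM (log2 change 1.14 ± 0.06 SE, limma adjusted p = 0.000340), and this change ranked 207 from the top of the 13938 tested genes. SRSF1 (gene ID 6426) spans chromosome 17 from 56078280 to 56084707 in hg19, the build of the files. No other member changed by 1.5-fold. The call held in all 14 alternative settings, with a log2 change of 1.01 after median-of-ratios scaling and 1.05 after quantile normalisation. Its promoter is shown because it belongs to the member that changed most. The 250 bases before the RefSeq start (GRCh38.p14, chr17:58007247-58007496, minus strand, 5′ to 3′) hold none of the 9 motifs searched and so carry no capitals, which in the promoters below mark CCAAT boxes, GC boxes (GGGCGG), ETS cores (CCGGAA) and E-boxes (CACGTG) on either strand.
SRSF1: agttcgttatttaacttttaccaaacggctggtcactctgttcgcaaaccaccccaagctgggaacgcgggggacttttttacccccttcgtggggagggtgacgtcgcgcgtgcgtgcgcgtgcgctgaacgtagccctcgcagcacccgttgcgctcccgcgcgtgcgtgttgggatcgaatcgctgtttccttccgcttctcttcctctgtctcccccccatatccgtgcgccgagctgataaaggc

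SRSF6 (SRp55), an SR protein with a pair of RNA recognition motifs, had the next largest change of the family. It was at 48.7 and 48.3 TPM in the DMSO libraries and 66.5 and 66.9 TPM in the barasertib libraries, with replicates within 1 TPM of each other, and rose from 48.5 ± 0.271 to 66.7 ± 0.327 TPM (log2 change 0.45 ± 0.05 SE, limma adjusted p = 0.00287). SRSF6 also kept its call in all 14 alternative settings. SRSF11 (p54), which is found in complexes with U2AF, rose from 118 ± 1.32 to 144 ± 1.07 TPM (log2 change 0.29, limma adjusted p = 0.00720). SRSF2 (SC35), a component of nuclear speckles, was among the most abundant SR transcripts and rose from 238 ± 1.59 to 286 ± 10.5 TPM (log2 change 0.26, limma adjusted p = 0.00927). SRSF7 (9G8), an SR protein with a zinc knuckle that also serves as an adaptor for mRNA export, rose from 82.0 ± 4.65 to 102 ± 0.604 TPM (log2 change 0.31, limma adjusted p = 0.0118). SRSF5 (SRp40) was at 124 and 143 TPM in the DMSO libraries and 165 and 169.9 TPM in the barasertib libraries (log2 change 0.33, limma adjusted p = 0.0224). Its groups did not overlap, but DMSO replicate 2 lay nearly as far from DMSO replicate 1 as from the treated libraries. The SRSF5 call was lost when either barasertib library or the first DMSO library was left out (limma adjusted p of 0.0882, 0.108 and 0.0567), and that of SRSF7 when either barasertib library was (0.0617 and 0.0559). After median-of-ratios scaling SRSF2, SRSF5, SRSF7 and SRSF11 were no longer called (limma adjusted p of 0.0943, 0.106, 0.0681 and 0.0547), nor was SRSF5 after quantile normalisation (0.0727).

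The remaining 6 SR genes did not pass the test. SRSF3 (SRp20), the smallest SR protein and like SRSF7 an export adaptor, was at 196 and 212 TPM with DMSO against 212 and 207 TPM with barasertib, and its groups overlapped (95% interval of the log2 change -0.09 to 0.17). SRSF4 (SRp75) was at 199 ± 3.02 TPM in the controls and 212 ± 1.32 TPM after treatment, and SRSF9 (SRp30c), a close relative of SRSF1, at 230.3 ± 4.03 and 251 ± 3.46 TPM. SRSF9 had a limma adjusted p of 0.0686, and its interval of 0.02 to 0.23 lies below that of SRSF1. SRSF10 (SRp38), which represses splicing when dephosphorylated, showed the widest replicate spread of the family, at 49.5 and 65.0 TPM with DMSO against 65.4 and 49.9 TPM with barasertib. The replicates of SRSF10 crossed between groups, so its interval of -0.39 to 0.41 leaves room for a change in either direction. SRSF8, a copy of SRSF2, was at 17.0 ± 0.352 and 15.7 ± 0.659 TPM, and SRSF12, the least abundant SR gene, at 6.68 ± 0.307 and 7.49 ± 0.0678 TPM.

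**Figure D1:**
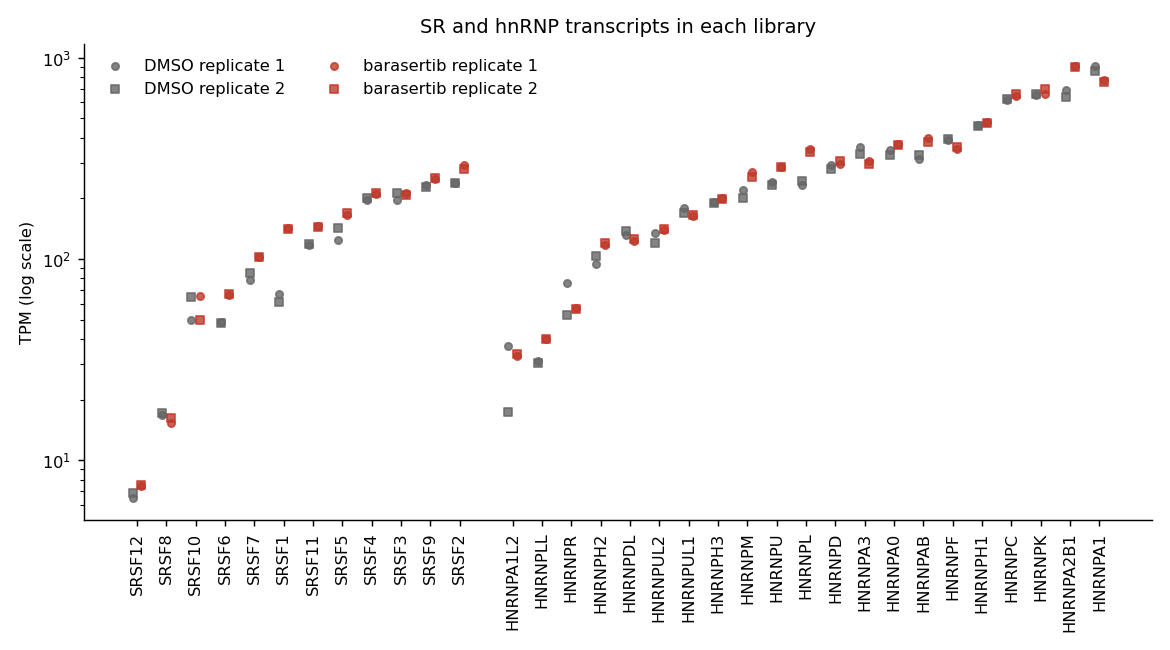
TPM (log scale) of the 33 tested members in each of the 4 libraries, with SRSF genes on the left and HNRNP genes on the right, ordered by mean. Circles and squares are replicates 1 and 2, grey for DMSO and red for barasertib. SRSF1 separates by group from 61.3 and 66.7 TPM to 141 and 143 TPM, while HNRNPR, HNRNPA1L2 and SRSF10 have replicates that lie apart.

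Summed over the 12 SR genes, expression was 1398 ± 35.7 TPM in the controls and 1663 ± 19.0 TPM after treatment, a ratio of 1.19. Without SRSF1 the sums were 1334 ± 39.5 and 1521 ± 17.5 TPM. The makeup of this pool shifted chiefly in SRSF1, whose share was 4.86% and 4.30% with DMSO and 8.55% and 8.56% with barasertib. The share of SRSF3 was 14.6 ± 0.412% with DMSO and 12.6 ± 0.0568% with barasertib, and that of SRSF4 14.2 ± 0.147% and 12.7 ± 0.225%. SRSF2 held the largest share in both groups, at 17.0 ± 0.548% and 17.2 ± 0.438%. A single scaling factor per library leaves shares within it unchanged, whereas quantile normalisation can change them. With 2 libraries against 2, an exact permutation test of such a single value cannot give a p under 0.333, so shares and ratios are given without one.

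The hnRNP genes moved in both directions. HNRNPL, HNRNPA2B1, HNRNPLL, HNRNPM, HNRNPAB, HNRNPU and HNRNPH2 rose, and HNRNPA1, HNRNPA3 and HNRNPF fell, all by less than 1.5-fold. Of the 21 tested, 7 were called higher and 3 lower, beside the 22.0% and 7.44% of all tested genes. The median log2 change was 0.08, a little under the 0.11 of all tested genes, and single members ran from -0.20 to 0.54. Summed over the 25 HNRNP genes with a row, expression was 6502 ± 153 TPM in the controls and 6979 ± 13.9 TPM after treatment.

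The A/B group, the abundant core hnRNPs, split between its members. HNRNPA2B1, which binds UAG-containing RNA and takes part in mRNA transport, was at 693 and 637 TPM in the DMSO libraries and 913 and 900.4 TPM in the barasertib libraries, with both treated libraries above both controls. It rose from 665 ± 39.3 to 907 ± 8.93 TPM (log2 change 0.45 ± 0.05 SE, limma adjusted p = 0.00212). HNRNPA1, the splicing silencer that counteracts SRSF1, was at 906 and 862 TPM in the DMSO libraries and 778 and 756 TPM in the barasertib libraries, with both treated libraries below both controls. It fell from 884 ± 30.7 to 767 ± 15.9 TPM (log2 change -0.20 ± 0.04 SE, limma adjusted p = 0.0143). HNRNPA3, a paralog of both, was at 358 and 331 TPM with DMSO against 306 and 297 TPM with barasertib and fell with a log2 change of -0.19 (limma adjusted p = 0.0386). The calls of HNRNPA1 and HNRNPA3 held under all 3 scalings but were lost when barasertib replicate 1 was left out (limma adjusted p of 0.0507 and 0.0970), when its second replicate was (0.0706 and 0.146), and when DMSO replicate 1 was (0.0621 and 0.171). HNRNPA2B1 (gene ID 3181) spans chromosome 7 from 26229556 to 26240413, HNRNPA1 (gene ID 3178) chromosome 12 from 54674474 to 54680872 and HNRNPA3 (gene ID 220988) chromosome 2 from 178077422 to 178088687 in hg19.

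A second row lies inside the HNRNPA1 gene in these files. It carries the ID of the pseudogene HNRNPA1P10 (gene ID 664709, placed by RefSeq on chromosome 19 in GRCh38) but the hg19 position chromosome 12 from 54674533 to 54678663, on the same strand as HNRNPA1. This row held more than HNRNPA1 itself, at 1732 and 1619 TPM with DMSO against 1382 and 1434 TPM with barasertib (log2 change -0.25, limma adjusted p = 0.00966), or 65.5 ± 0.298% and 64.7 ± 1.06% of the 2 rows together. HNRNPA1 alone may therefore understate expression from its locus, but no source used here states how reads were divided between the rows. The call of the HNRNPA1P10 row was lost after quantile normalisation and without 1 of the 4 libraries. The sum of both rows was 2638 and 2481 TPM in the controls and 2160.3 and 2189 TPM after treatment, and with the rows summed HNRNPA1 also fell (log2 change -0.23, limma adjusted p = 0.00784). In the HNRNPA3 locus, 2 microRNA rows (MIR4444-1 and MIR4444-2) together held 248 ± 14.7 TPM in the controls and 199 ± 7.14 TPM after treatment, and with these added HNRNPA3 fell by 0.24 on the log2 scale (limma adjusted p = 0.0182). Each of these rows overlaps HNRNPA3 by only 73 bases. TPM is corrected for length, so adding such short rows does not give the expression of the locus. No conclusion on HNRNPA3 is drawn from this sum. With the HNRNPA1P10 row included, the HNRNP sum was 8178 ± 234 TPM in the controls and 8387 ± 22.5 TPM after treatment, a ratio of 1.03 against 1.07 without it. HNRNPA1L2, a copy of HNRNPA1 whose reads are hard to separate from those of its parent, was at 36.9 and 17.4 TPM with DMSO against 33.0 and 33.7 TPM with barasertib. A single library, DMSO replicate 2, set its spread, and its call followed that library: without DMSO replicate 1 it was called higher (log2 change 0.90, limma adjusted p = 0.00106), and without DMSO replicate 2 it was not (-0.14, 0.330).

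The ratio of HNRNPA2B1 to HNRNPA1 within each library was 0.765 and 0.739 with DMSO and 1.17 and 1.19 with barasertib, so the more abundant of these 2 rows changed from HNRNPA1 to HNRNPA2B1. That order does not survive the addition of the HNRNPA1P10 row, with which the ratio was 0.260 ± 0.00409 and 0.417 ± 0.00804. The relative increase was similar, at 1.57-fold on HNRNPA1 alone and 1.61-fold on both rows. For the antagonists SRSF1 and HNRNPA1, the ratio was 0.0736 and 0.0710 with DMSO and 0.184 and 0.187 with barasertib, a 2.56-fold increase (2.62-fold on both rows). A single scaling factor per library leaves ratios within it unchanged, whereas quantile normalisation can change them. In these pairs both treated libraries lay above both controls in TPM. SRSF1 over its relative SRSF9 likewise was 0.278 ± 0.0118 with DMSO and 0.566 ± 0.0138 with barasertib.

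The promoters of HNRNPA2B1 and HNRNPA3 are shown side by side as those of paralogs that changed in opposite directions (250 bases before the RefSeq start, GRCh38.p14, chr7:26200747-26200996 on the minus strand and chr2:177212544-177212793 on the plus strand). HNRNPA2B1 holds a CCAAT box, read on the other strand as ATTGG, whose farthest base lies 101 bases before the start. HNRNPA3 holds a CCAAT box at 118 bases, an E-box at 71 bases and 3 GC boxes.
HNRNPA2B1: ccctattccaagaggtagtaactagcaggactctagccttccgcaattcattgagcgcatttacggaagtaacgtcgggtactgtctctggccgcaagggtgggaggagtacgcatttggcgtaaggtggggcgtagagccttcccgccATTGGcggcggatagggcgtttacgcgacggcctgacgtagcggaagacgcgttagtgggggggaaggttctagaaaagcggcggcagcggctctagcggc
HNRNPA3: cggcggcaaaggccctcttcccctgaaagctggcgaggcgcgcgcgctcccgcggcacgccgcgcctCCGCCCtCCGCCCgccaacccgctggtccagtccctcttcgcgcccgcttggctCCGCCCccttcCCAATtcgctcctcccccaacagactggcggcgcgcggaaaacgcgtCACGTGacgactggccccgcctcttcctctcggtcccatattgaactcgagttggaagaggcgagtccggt

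HNRNPL, which binds CA-rich elements, had the largest change among the hnRNPs. It was at 232 and 245 TPM in the DMSO libraries and 353 and 342 TPM in the barasertib libraries, with no overlap between groups, and rose from 239 ± 8.95 to 347 ± 7.71 TPM (log2 change 0.54 ± 0.05 SE, limma adjusted p = 0.00115). Its relative HNRNPLL, known for regulating alternative exons of the CD45 gene in lymphocytes, was far less abundant, at 31.1 and 30.3 TPM with DMSO against 39.8 and 39.9 TPM with barasertib, and rose as well (log2 change 0.37, limma adjusted p = 0.00829). Both were called under all 3 scalings and without each library in turn. HNRNPL (gene ID 3191) spans chromosome 19 from 39327028 to 39342979 in hg19. Its promoter (chr19:38852348-38852597, GRCh38.p14, minus strand), shown for the hnRNP with the largest rise, holds a CCAAT box 80 bases before the start and GC boxes at 231 and 27 bases.
HNRNPL: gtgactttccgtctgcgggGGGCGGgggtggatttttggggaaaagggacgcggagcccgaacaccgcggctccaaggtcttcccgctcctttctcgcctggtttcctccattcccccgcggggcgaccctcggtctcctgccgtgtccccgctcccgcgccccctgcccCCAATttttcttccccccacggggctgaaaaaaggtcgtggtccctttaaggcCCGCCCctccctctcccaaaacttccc

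HNRNPAB, which binds single-stranded nucleic acid, was at 314 and 328 TPM with DMSO against 398 and 383 TPM with barasertib (log2 change 0.28, limma adjusted p = 0.00734). HNRNPU (SAF-A), a nuclear scaffold protein that tethers RNA to chromatin, rose from 237 ± 4.59 to 286 ± 1.28 TPM (log2 change 0.27, limma adjusted p = 0.00636). HNRNPM, which binds GU-rich RNA, rose from 211 ± 14.4 to 262 ± 10.2 TPM (log2 change 0.32, limma adjusted p = 0.0136), a call lost without barasertib replicate 1 (0.0781). After median-of-ratios scaling HNRNPAB, HNRNPU and HNRNPM were not called (limma adjusted p of 0.0619, 0.0592 and 0.0871). In that scaling the HNRNP counts were 3 higher and 5 lower. All tested genes shifted the same way, to 11.0% higher and 13.6% lower.

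The F/H group binds runs of G and contains HNRNPF, HNRNPH1, HNRNPH2 and HNRNPH3. HNRNPF was at 391.9 and 393.3 TPM in the DMSO libraries and 354 and 359 TPM in the barasertib libraries. Replicates agreed closely and the groups did not overlap, and the fall was small (log2 change -0.14 ± 0.04 SE, limma adjusted p = 0.0367). The HNRNPF call held under all 3 scalings and was lost with any 1 of the 4 libraries left out (limma adjusted p of 0.0807 to 0.140). HNRNPH2, the X-linked member, rose from 98.6 ± 6.02 to 118 ± 1.61 TPM (log2 change 0.26, limma adjusted p = 0.0216), and that call was lost without either barasertib library or DMSO replicate 1 (limma adjusted p of 0.0776 to 0.0948) and under both other scalings (0.156 after median-of-ratios scaling). HNRNPH1, the most abundant of the group, was at 462 ± 5.64 TPM in the controls and 478 ± 3.85 TPM after treatment, and HNRNPH3 at 191 ± 1.26 and 200.4 ± 1.82 TPM, neither of which passed the test. The ratio of HNRNPH1 to HNRNPF was 1.18 ± 0.0173 with DMSO and 1.34 ± 0.0247 with barasertib.

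The other hnRNPs did not pass the test in TPM. HNRNPC, which coats nascent transcripts at U-rich tracts, was at 619 ± 3.18 TPM in the controls and 653 ± 14.6 TPM after treatment. HNRNPK, which binds C-rich RNA and DNA through KH domains, was at 657 ± 1.64 and 682 ± 27.9 TPM. The intervals of their log2 changes, -0.01 to 0.17 and -0.05 to 0.15, leave little room for a large change in these abundant messages. HNRNPD (AUF1), which binds AU-rich elements and promotes decay, was at 285 ± 8.93 and 301 ± 6.35 TPM, and its relative HNRNPDL at 135 ± 3.71 and 124 ± 1.42 TPM. HNRNPA0 was at 338 ± 16.1 and 369 ± 3.06 TPM. HNRNPUL1 and HNRNPUL2, relatives of HNRNPU, were at 174 ± 6.94 and 165 ± 0.879 TPM and at 127 ± 9.73 and 139.8 ± 0.454 TPM. HNRNPDL and HNRNPUL1 were called lower under both other scalings (limma adjusted p of 0.0147 and 0.0236 for HNRNPDL, 0.0275 and 0.0410 for HNRNPUL1). HNRNPC and HNRNPK were called higher after quantile normalisation (log2 changes of 0.16 and 0.13, limma adjusted p of 0.0271 and 0.0485), though their changes were below 0 after median-of-ratios scaling. HNRNPR was at 75.5 and 52.4 TPM with DMSO against 57.2 and 56.3 TPM with barasertib, so that DMSO replicate 1 alone stood apart and the groups overlapped. Without DMSO replicate 2 it was called lower (log2 change -0.41, limma adjusted p = 0.0133).

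**Figure D2:**
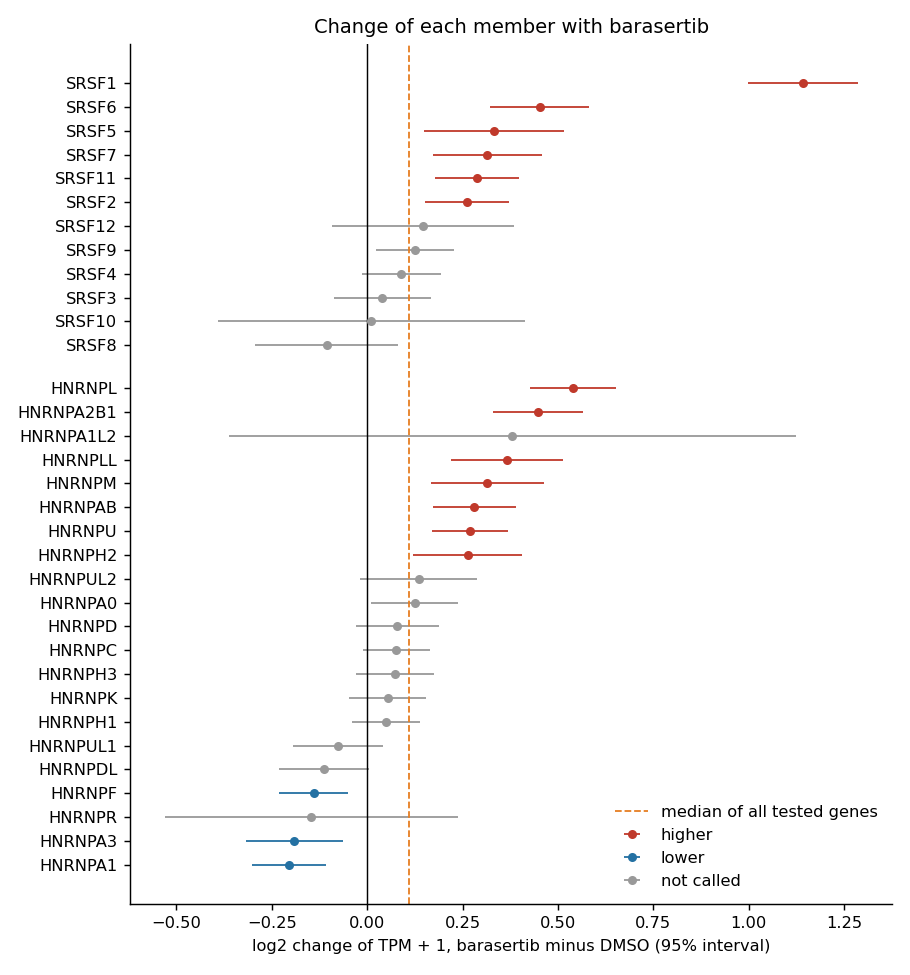
Log2 change of TPM + 1 (barasertib minus DMSO) of the 33 tested members with 95% intervals from limma, n = 2 libraries per group; red and blue mark calls, grey marks none, and the dashed line is the median of all tested genes at 0.11. SRSF1 lies at 1.14 and the others from -0.20 to 0.54, with the widest intervals for HNRNPA1L2, SRSF10 and HNRNPR.

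Over both families, 16 of 33 members (48.5%) were called, 13 higher and 3 lower, against 29.5% of all tested genes. The members are abundant, and abundant genes are called more often: of the 1717 genes averaging 100 TPM or more, 55.0% were called, 35.5% higher and 19.5% lower, beside 13 of the 25 members above that level (52.0%), 10 higher and 3 lower. Above 100 TPM the share of members called was therefore near that of other genes. The threshold of 100 TPM was chosen after seeing the data. In 29 of the 33 members (87.9%) the TPM values of the groups did not overlap, a property of 68.8% of all tested genes. These 2 shares were not matched for level, and the members had a median of 205 TPM against 19.0 TPM for all tested genes. The 4 whose groups overlapped were SRSF3, SRSF10, HNRNPA1L2 and HNRNPR.

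TPM values depend on the total of each library, and the all-gene median of the log2 change, 0.11, moved by -0.12 under each of the other scalings tried. SRSF1, SRSF6, HNRNPL, HNRNPA2B1 and HNRNPLL were called higher under all 3 scalings, and HNRNPA1, HNRNPA3 and HNRNPF lower. These are 5 and 3 of 33 members, beside 10.0% and 7.05% of all tested genes. Of the 16 called members, 9 kept their call without each of the 4 libraries in turn, namely SRSF1, SRSF2, SRSF6, SRSF11, HNRNPA2B1, HNRNPAB, HNRNPL, HNRNPLL and HNRNPU.

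**Figure D3:**
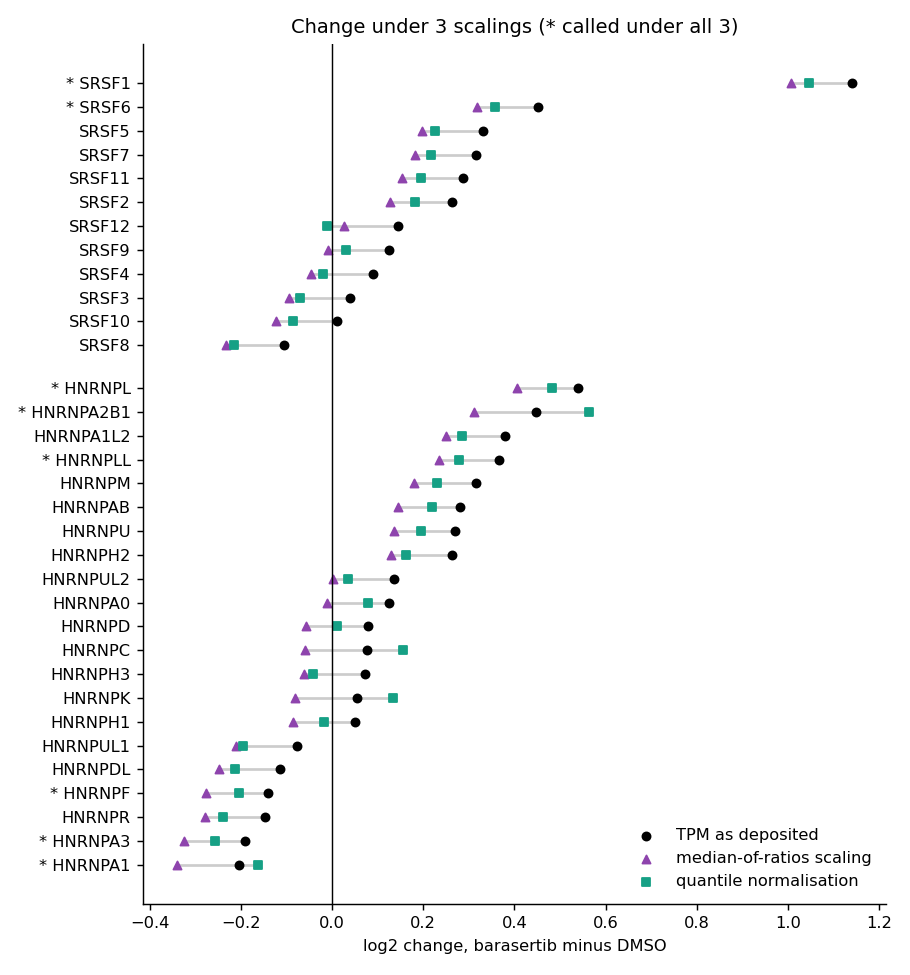
Log2 change of each tested member (barasertib minus DMSO) in TPM as deposited (circles), after median-of-ratios scaling (triangles) and after quantile normalisation (squares). An asterisk marks the 8 members called in the same direction under all 3 scalings; most values move left of those in TPM (HNRNPA2B1, HNRNPC, HNRNPK and HNRNPA1 move right after quantile normalisation), and members near 0, such as SRSF4 and HNRNPH1, change sign.

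Of the tested members, 7 have a gene on the opposite strand that starts within 1000 bases upstream in the hg19 rows, and in 4 of these pairs both genes were called in the same direction, with 0 pairs called in opposite directions. Over all tested genes, 73 of 950 such pairs (7.68%) were called in the same direction and 18 (1.89%) in opposite ones, without matching for level, and members are called more often than genes at large. CBX3, which encodes the heterochromatin protein HP1 gamma, starts 418 bases from HNRNPA2B1 and rose with it, at 270.4 and 287 TPM with DMSO against 327 and 349 TPM with barasertib (log2 change 0.28, limma adjusted p = 0.0129). CBX5, which encodes HP1 alpha, starts 559 bases from HNRNPA1 and fell with it, at 47.9 and 47.3 TPM with DMSO against 39.9 and 39.0 TPM with barasertib (log2 change -0.26, limma adjusted p = 0.0200). The CBX5 call was lost with any 1 of the 4 libraries left out, and that of CBX3 without 1 of them and after median-of-ratios scaling. The lysosomal galactosidase gene GLA, 120 bases from HNRNPH2, was at 54.8 and 51.3 TPM with DMSO against 69.7 and 72.9 TPM with barasertib (log2 change 0.42, limma adjusted p = 0.00582). LRRC40, 4 bases from SRSF11, was at 62.8 and 63.4 TPM with DMSO against 71.9 and 76.0 TPM with barasertib (log2 change 0.22, limma adjusted p = 0.0299), a call that ended under each of the other scalings and with any 1 library left out. DYNLL1 beside SRSF9, ENOPH1 beside HNRNPDL and TTC9C beside HNRNPUL2 did not pass the test in TPM.

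**Figure D4:**
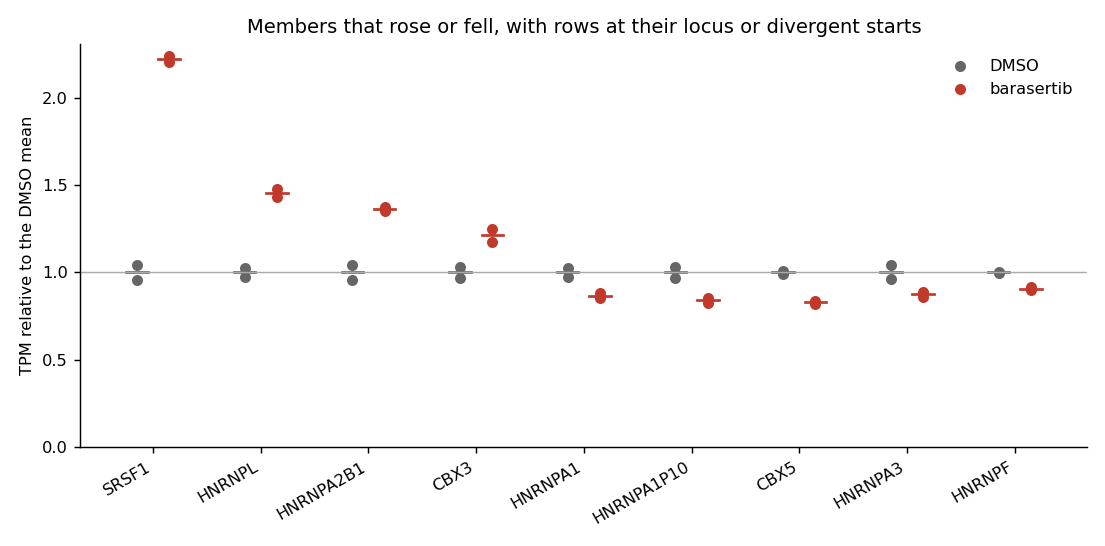
TPM in each library divided by the DMSO mean of that gene (axis from 0), for 6 of the members that rose or fell and for CBX3, HNRNPA1P10 and CBX5, whose rows share a locus or a divergent start with HNRNPA2B1 and HNRNPA1. Points are libraries, n = 2 per group, and bars are means. The barasertib points of HNRNPA2B1 and CBX3 lie above 1, and those of HNRNPA1, HNRNPA1P10 and CBX5 below it.

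Reads from overlapping genes on opposite strands cannot be separated unless strand was used in counting, which the sources used here do not state. Such a neighbour overlapped SRSF2 (MFSD11), SRSF5 (LOC100289511), SRSF9 (GATC), HNRNPAB (PHYKPL), HNRNPH3 (PBLD and RUFY2) and HNRNPK (RMI1), and each of these neighbours averaged below 25 TPM in both groups. Of the neighbours that were tested, only RMI1 passed, with a log2 change of 0.52 (limma adjusted p = 0.0160). On the same strand, the read-through row of RPL36A and HNRNPH2 held 10.5 ± 2.71 TPM in the controls and 11.3 ± 7.18 TPM after treatment, and HNRNPH2 with this row added also rose (log2 change 0.25, limma adjusted p = 0.0208).

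RefSeq promoters (GRCh38.p14) were found for 31 of the 33 tested members, all but SRSF2 and HNRNPA1. Over the 250 bases before the start, on either strand, a CCAAT box (CCAAT) stood in 15 of 31 members (48.4%) and in 35.6% of the 10268 tested protein-coding genes with a promoter. A GC box (GGGCGG) stood in 20 of 31 (64.5%, against 68.6%), an ETS core (CCGGAA) in 7 (22.6%, against 25.6%) and an E-box (CACGTG) in 6 (19.4%, against 9.0%). The remaining 5 of the 9 motifs searched were TATAAA in 5 members (16.1%, against 5.21%), TTTNGCGC and TGACGTCA, each in 0 (against 2.59% and 3.03%), the NRF1 palindrome, also in 0 (against 2.04%), and a longer palindrome centred on CGCG in 2, SRSF10 and HNRNPK (6.45%, against 0.828%). Of the 12 members that rose and have a promoter here, 6 held a CCAAT box and 2 an E-box, and of the 2 that fell, 2 and 1. A match is a string of letters, not evidence of binding. The median GC content of the members was 65.6%, beside 65.2% of all these genes.

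In GENCODE 29, 25 of the 33 tested members (75.8%) have a transcript annotated for nonsense-mediated decay, beside 42.5% of 12433 tested protein-coding genes, and 23 (69.7%) have a retained-intron transcript, beside 57.1%. All 12 SR genes are among the 25. SRSF1 has 3 such decay transcripts among 9, SRSF7 has 6 among 12, and HNRNPU has 9 among 31. Members had a median of 11 annotated transcripts against 8. The files summarise each gene as a whole, so which of these isoforms changed was not tested, and a change of isoform lengths can move a gene's TPM.

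Partners of the families were followed in 5 lists of 200 genes, of which 190 were tested. Of these, 61 were called higher (32.1%) and 7 lower (3.68%), beside 22.0% and 7.44% of all tested genes. Their median log2 change was 0.14, beside 0.11 for all tested genes. Their median level was 76.6 TPM, against 19.0 TPM for all tested genes. Of genes averaging 100 TPM or more, 35.5% were called higher and 19.5% lower. The shares of the lists were not matched for level. Among SR-related proteins and coactivators, 6 of 24 rose (25.0%), near the share of all tested genes. TRA2A, which binds GAA-rich enhancers, rose from 67.6 ± 2.75 to 87.8 ± 2.53 TPM, and the speckle protein SON from 93.0 ± 3.22 to 109 ± 1.09 TPM. RSRC2 and RSRP1, which carry arginine and serine repeats, had log2 changes of 0.53 and 0.46; of these 4 only TRA2A was called under all 3 scalings. Among SR kinases, phosphatases and importins, 2 of 17 rose (11.8%) and 1 fell. The kinase PRPF4B was on this list but was not found under that symbol, so its level was not examined. SRPK1, the cytoplasmic kinase that loads phosphate onto SR tails, rose from 47.5 ± 1.47 to 60.4 ± 0.646 TPM, and the kinase AKT1 from 37.9 ± 2.58 to 54.3 ± 3.29 TPM, while the phosphatase subunit PPP1CC fell from 459 ± 4.60 to 385 ± 11.9 TPM. These 3 were called under all 3 scalings and without each library in turn.

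Among 54 other RNA-binding splicing regulators, 20 rose (37.0%, beside 22.0% of all tested genes) and 4 fell (7.41%, beside 7.44%). The balance depended on the scaling. After median-of-ratios scaling 8 were higher (14.8%, beside 11.0%) and 13 lower (24.1%, beside 13.6%). Under all 3 scalings, 7 were higher (13.0%, beside 10.0%) and 4 lower (7.41%, beside 7.05%). ESRP1, an epithelial splicing regulator, had the largest change of any gene in the lists and fell from 16.6 ± 0.0510 to 4.62 ± 0.122 TPM (log2 change -1.65). EWSR1, of the FET family, rose from 129 ± 0.577 to 189.8 ± 5.99 TPM, and NOVA1 and PCBP4, both under 10 TPM, had log2 changes of 0.60 and 0.63 that were not called under every scaling. SFPQ, TARDBP and PTBP2, named after their values were seen, rose from 247 ± 6.24 to 363 ± 6.06 TPM, from 124 ± 2.55 to 167 ± 3.43 TPM and from 13.0 ± 0.683 to 18.4 ± 0.648 TPM. Besides ESRP1, the genes called lower were RBMX, PCBP2 and QKI, also named after their values were seen. RBMX fell from 766 ± 39.7 to 600 ± 18.8 TPM, PCBP2 from 385 ± 7.06 to 319 ± 5.07 TPM and QKI from 67.7 ± 8.32 to 53.1 ± 4.32 TPM. These falls were called under all 3 scalings. QKI was near the threshold in TPM (limma adjusted p = 0.0473), and unlike RBMX and PCBP2 it did not keep its call without each library in turn. In the core spliceosome, 31 of 78 rose (39.7%) and 1 fell, TXNL4A of the U5 particle (from 86.4 ± 0.454 to 54.7 ± 3.23 TPM). The median level of this list was 88.0 TPM, against 19.0 TPM for all tested genes, and its share was not matched for level. LSM3 rose from 202 ± 7.24 to 273 ± 4.62 TPM and SNRNP48 from 14.8 ± 0.0267 to 20.5 ± 0.586 TPM, while SNRPG was at 127 ± 15.5 and 173 ± 28.2 TPM, a call lost under both other scalings. Under all 3 scalings, 6 of the 31 (7.69% of the list, beside 10.0% of all tested genes) and TXNL4A were called. Of 17 genes of nonsense-mediated decay and the exon junction complex, EIF4A3 rose from 184 ± 1.10 to 239.7 ± 6.24 TPM, UPF1 rose with a log2 change of 0.25 in TPM only, and NBAS fell from 35.1 ± 0.773 to 28.3 ± 0.972 TPM, a call lost with any 1 of the 4 libraries left out.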

How the data were processed

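Per the submitters' processing notes, the authors used HISAT2, StringTie and hg19. The sources used here name no version or annotation and do not say whether strand was used in counting. Per the file headers, the deposited files give coverage (signal, used only to estimate depth), FPKM and TPM per gene row. Rows of an ID were summed, and symbols came from RefSeq (GRCh38.p14, names only), which matched 27559 of 27685 IDs. No member stood on several rows.

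Genes averaging 1 TPM or more were tested with limma 3.58.1 (R 4.3.3). The model of log2(TPM + 1) held only the group, with a mean-variance trend, two-sided tests and Benjamini-Hochberg adjustment over 13938 genes at 0.05. Variances were moderated by empirical Bayes, with 2 residual and 4.09 prior degrees of freedom. Fold changes on this scale understate those of low genes; means are ± SD with n = 2. Intervals are 95%. The marker, promoter and transcript tables are descriptions with no test. The 14 alternative settings changed filter, pseudocount, unit, scaling, variance model, replicate block or library; summing rows of a locus was added after seeing the data. Members and lists were chosen with earlier results of these data known. Named partner genes are the called ones with the largest change, up to 4 a list, and those marked as named after their values were seen. The list genes were not tested as sets. Python 3.11.15 and matplotlib 3.10.9 made tables and plots.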

Additional observations from a re-analysis of the deposited data

How the results depend on the processing

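The precision rests on 2 libraries per group. Over all tested genes, 3071 were higher and 1037 lower. These counts were 435 and 160 without the filter, 1534 and 1891 after median-of-ratios scaling and 1649 and 1590 after quantile normalisation, and 674 were lower without the mean-variance trend. Leaving out a library gave 1365 to 2181 higher and 601 to 699 lower. SR genes called higher, 6, numbered 3 without the filter and 2 after median-of-ratios scaling. HNRNP genes called higher, 7, numbered 2 without the filter, 3 after median-of-ratios scaling and 4 without the trend, and those called lower, 3, numbered 0 without the filter or the trend and 5 under each other scaling. Leaving out a library gave 4 to 6 SR genes higher, 5 to 7 HNRNP genes higher and 0 to 3 lower. The 61 partner genes higher and 7 lower became 7 and 1 without the filter, 18 and 22 after median-of-ratios scaling, 28 and 15 after quantile normalisation and 31 and 4 without the trend, with 25 to 44 higher and 5 to 8 lower when a library was left out. Where a library was left out, the lone library of its group was assumed to vary like the other group. Leaving out a library also lowers the number of samples, and dropping the filter raises the number of genes tested. The causes of the changed counts were not tested.

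Members not called in TPM changed sign as log2 changes of SRSF3 -0.095, SRSF4 -0.045, SRSF9 -0.0090, SRSF10 -0.12, HNRNPA0 -0.010, HNRNPC -0.058, HNRNPD -0.056, HNRNPH1 -0.085, HNRNPH3 -0.062, HNRNPK -0.081 (median-of-ratios scaling), SRSF3 -0.071, SRSF4 -0.020, SRSF10 -0.084, SRSF12 -0.010, HNRNPH1 -0.017, HNRNPH3 -0.041 (quantile normalisation), SRSF10 -0.011 (FPKM), SRSF10 -0.18 (without barasertib replicate 1), SRSF3 -0.015, SRSF10 -0.18, HNRNPR 0.11 (without DMSO replicate 1) and HNRNPA1L2 -0.14 (without DMSO replicate 2). With each library left out in turn, the log2 change ranged over -0.015 to 0.094 for SRSF3, -0.18 to 0.20 for SRSF10, -0.14 to 0.90 for HNRNPA1L2 and -0.41 to 0.11 for HNRNPR. No called member changed sign in any setting run. Same-numbered libraries shared little (correlation of deviations 0.023), and the labels do not pair them. With the replicate block 3218 genes were higher and 1080 lower, with 6 SR genes higher and 7 and 3 HNRNP genes higher and lower. Summing rows of a locus left the counts of members at 6 SR genes higher and 7 and 3 HNRNP genes higher and lower.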
